A study of Mus musculus with 3 samples.

Results

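The genes described here encode the translation initiation factors, the proteins that load the small ribosomal subunit on an mRNA and place it at the start codon. A gene was a member when its mouse symbol begins with Eif followed directly by a digit from 1 to 6, apart from the Argonaute genes once named Eif2c. The rule names 67 genes, 56 of them protein-coding and 11 pseudogenes. Of the 72222 CELF1 clusters in the series, 294 belonged to these genes, and 42 of the 56 protein-coding members carried at least 1 cluster. None of the 11 pseudogenes did.

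The clusters come from CLIP-seq: UV irradiation at 254 nm crosslinks RNA to the proteins in contact with it, 1 of these proteins is immunoprecipitated, and the RNA that comes with it is sequenced. CELF1 (CUGBP1) is an RNA-binding protein that acts on alternative splicing in the nucleus and on mRNA stability and translation in the cytoplasm. The antibody, clone 3B1, recognizes endogenous CELF1. Heart ventricle and muscle tissue came from C57BL/6 mice aged 16 weeks, and the remaining library came from C2C12 cells, a cultured line of mouse myoblasts. There was 1 library for each source, with no transgene or treatment and no replicate, so nothing below was tested between sources and intervals cover counting error only.

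Initiation starts when eIF2 carries the initiator tRNA to the small subunit together with eIF1, eIF1A, eIF3 and eIF5. The eIF4F complex, made of the cap-binding protein eIF4E, the scaffold eIF4G and the helicase eIF4A, brings that subunit to the capped end of the mRNA. Kinases that phosphorylate eIF2, and 4E-binding proteins that hold eIF4E away from eIF4G, slow the process in stress or starvation.

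Of the 11 stretches covered by clusters of all 3 libraries, 9 held UGU, and 7 of these are printed, 1 for each gene (for Eif4e2 and Eif3a the longer one of those that hold it). UGU, the core of the CELF1 motif, is in capitals. Each line is the mm9 genome read on the gene's strand, from 5′ to 3′ as RNA. An intron stretch is whole, and a 3′ UTR stretch is cut to the 30-nt window with the most UGU.
Eif1ad, 3′ UTR, chr19:5371182-5371211, plus strand: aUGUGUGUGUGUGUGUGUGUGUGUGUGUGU
Eif4e, intron, chr3:138213144-138213184, plus strand: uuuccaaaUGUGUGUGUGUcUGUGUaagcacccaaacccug
Eif2ak4, intron, chr2:118228927-118228969, plus strand: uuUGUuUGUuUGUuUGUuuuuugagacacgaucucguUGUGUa
Eif4h, 3′ UTR, chr5:135097155-135097184, minus strand: ccUGUuuUGUgcuuucuuucUGUuuucuuu
Eif4g2, 3′ UTR, chr7:118214858-118214887, minus strand: ucucugcugggacagugagaaUGUuUGUGU
Eif3a, 3′ UTR, chr19:60837132-60837161, minus strand: augacUGUGUugacuucaauuuuggagUGU
Eif4e2, 3′ UTR, chr1:89136243-89136272, plus strand: ucuagagcuauuUGUcuuucccUGUccuug

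Eif4g3 held the most clusters of any member, all in introns or coding sequence, and 5 of its stretches shared by heart and muscle are printed whole for that reason. The first pair lies in intron 2, and the others in introns 3, 4 and 5.
Eif4g3, intron 2, chr4:137559664-137559702, plus strand: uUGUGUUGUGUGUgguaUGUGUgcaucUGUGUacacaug
Eif4g3, intron 2, chr4:137582076-137582133, plus strand: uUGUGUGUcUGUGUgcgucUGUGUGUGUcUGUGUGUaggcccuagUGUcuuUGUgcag
Eif4g3, intron 3, chr4:137604449-137604487, plus strand: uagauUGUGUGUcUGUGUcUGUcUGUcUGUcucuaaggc
Eif4g3, intron 4, chr4:137637298-137637348, plus strand: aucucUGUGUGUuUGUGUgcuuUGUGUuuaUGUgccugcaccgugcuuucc
Eif4g3, intron 5, chr4:137640840-137640878, plus strand: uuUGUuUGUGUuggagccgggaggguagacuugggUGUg

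Shared stretches with no UGU at all included 1 nt in Eif1b and 6 nt in Eif2ak2, too short to hold much sequence. A further 3, each longer than 30 nt, had none either, and 30-nt windows of them are given for contrast. The 5′ UTR of Eif1 and the 3′ UTR of Eif4b were marked there in heart and muscle, and the 3′ UTR of Eif4g2 in all 3 libraries.
Eif1, 5′ UTR, chr11:100181349-100181378, plus strand: cccccucgcuucccgacgcuccgucccccc
Eif4b, 3′ UTR, chr15:101926318-101926347, plus strand: uuuuuaccccccaaggggguaguugggagu
Eif4g2, 3′ UTR, chr7:118216058-118216087, minus strand: gaagcacgucaguaagguuuccuucugcau

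The libraries differed in size, with 42263 clusters in heart, 24844 in muscle and 5115 in C2C12, and a cluster carries no read number. C2C12 clusters were also shorter, with a median width of 38 nt against 55 nt in heart and 54 nt in muscle. Markers went with the labels of heart and muscle, with 4 of 6 heart genes bound in heart and all 7 skeletal muscle genes in muscle. Ryr2, the calcium release channel of cardiac muscle, had 252 clusters in heart and 0 elsewhere, although Nppa and Myl7 had 0 in every library, and skeletal muscle genes had 100 clusters in muscle, 15 in heart and 0 in C2C12. Of 5 myoblast genes, 3 were bound in C2C12, with 26 clusters in Hmga2, while Myf5 and Igf2bp1 had 0. Of 5 endothelial genes all were bound in heart (54 clusters), 4 in muscle (21) and 0 in C2C12. Of 4 fibroblast genes 2, 2 and 1 were bound in heart, muscle and C2C12, with 4, 4 and 1 clusters, and of 4 macrophage genes 1, 1 and 0, with 2, 1 and 0 clusters. The part of these other cells in the values below was not tested.

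The share of initiation factor genes with a cluster lay above that of protein-coding genes as a whole in heart and muscle. In heart, 37 of the 56 had a cluster (66.1%, 95% interval 52.2% to 78.2%), beside 33.0% of all 20587 annotated protein-coding genes. Muscle clusters lay in 30 of the 56 members (53.6%, 39.7% to 67.0%), beside 25.7% of all genes. C2C12 clusters lay in 13 members (23.2%), and the interval of 13.0% to 36.4% held the 13.2% of all genes. In any library 42 were bound, where 38.7% of all genes were, and in all 3 libraries 10 were bound, where 8.69% of all genes were. The comparison is not matched on expression, and a gene that is not transcribed in a tissue can have no cluster. Gene length differed little between the sets, with a median of 18132 nt for members and 17331 nt for all genes, and the median annotated 3′ UTR was 1110 nt for members and 767 nt for all genes. Bound members had a median of 2 clusters in heart, 3 in muscle and 2 in C2C12, beside 3, 3 and 1 for all bound genes.

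The 133 member clusters of heart were 0.315% of that library (95% interval 0.264% to 0.373%). Muscle had 131, or 0.527% (0.441% to 0.625%), and C2C12 had 30, or 0.587% (0.396% to 0.836%). Per cluster of the library, muscle therefore held 1.68 times the share of heart (1.31 to 2.15). Without Eif4g3, chosen for removal after its count was seen, the ratio was 1.33, and its interval of 0.987 to 1.78 held 1. The heart and muscle libraries had 26 bound members in common. Heart alone marked 9 members, muscle alone 4 and C2C12 alone only the kinase gene Eif2ak3. The matching shares of all genes were not computed for these counts, and heart was the largest library. The counts therefore show no trait particular to the members.

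Counted as they stand, 23 of the 41 members bound in heart or muscle had more clusters in heart, beside 66.2% of all such genes, and 11 had more in muscle, beside 23.0%. Scaled to the size of each library the order turned, with 16 members higher in heart, beside 53.6% of all genes, and 25 higher in muscle (61.0%, 44.5% to 75.8%), beside 46.4%. Scaling alone moves the 7 members with equal counts to muscle. In 3′ UTRs, 8 of 22 members had more clusters in heart, beside 49.7%, and 11 had more in muscle, beside 34.5%. In each of these 6 counts the members' interval held the value of all genes. For a single gene the counts were rarely large enough to separate these tissues: of the 26 members bound in both, only Eif4g3 had a scaled ratio whose interval lay clear of 1.

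**Figure D1:**
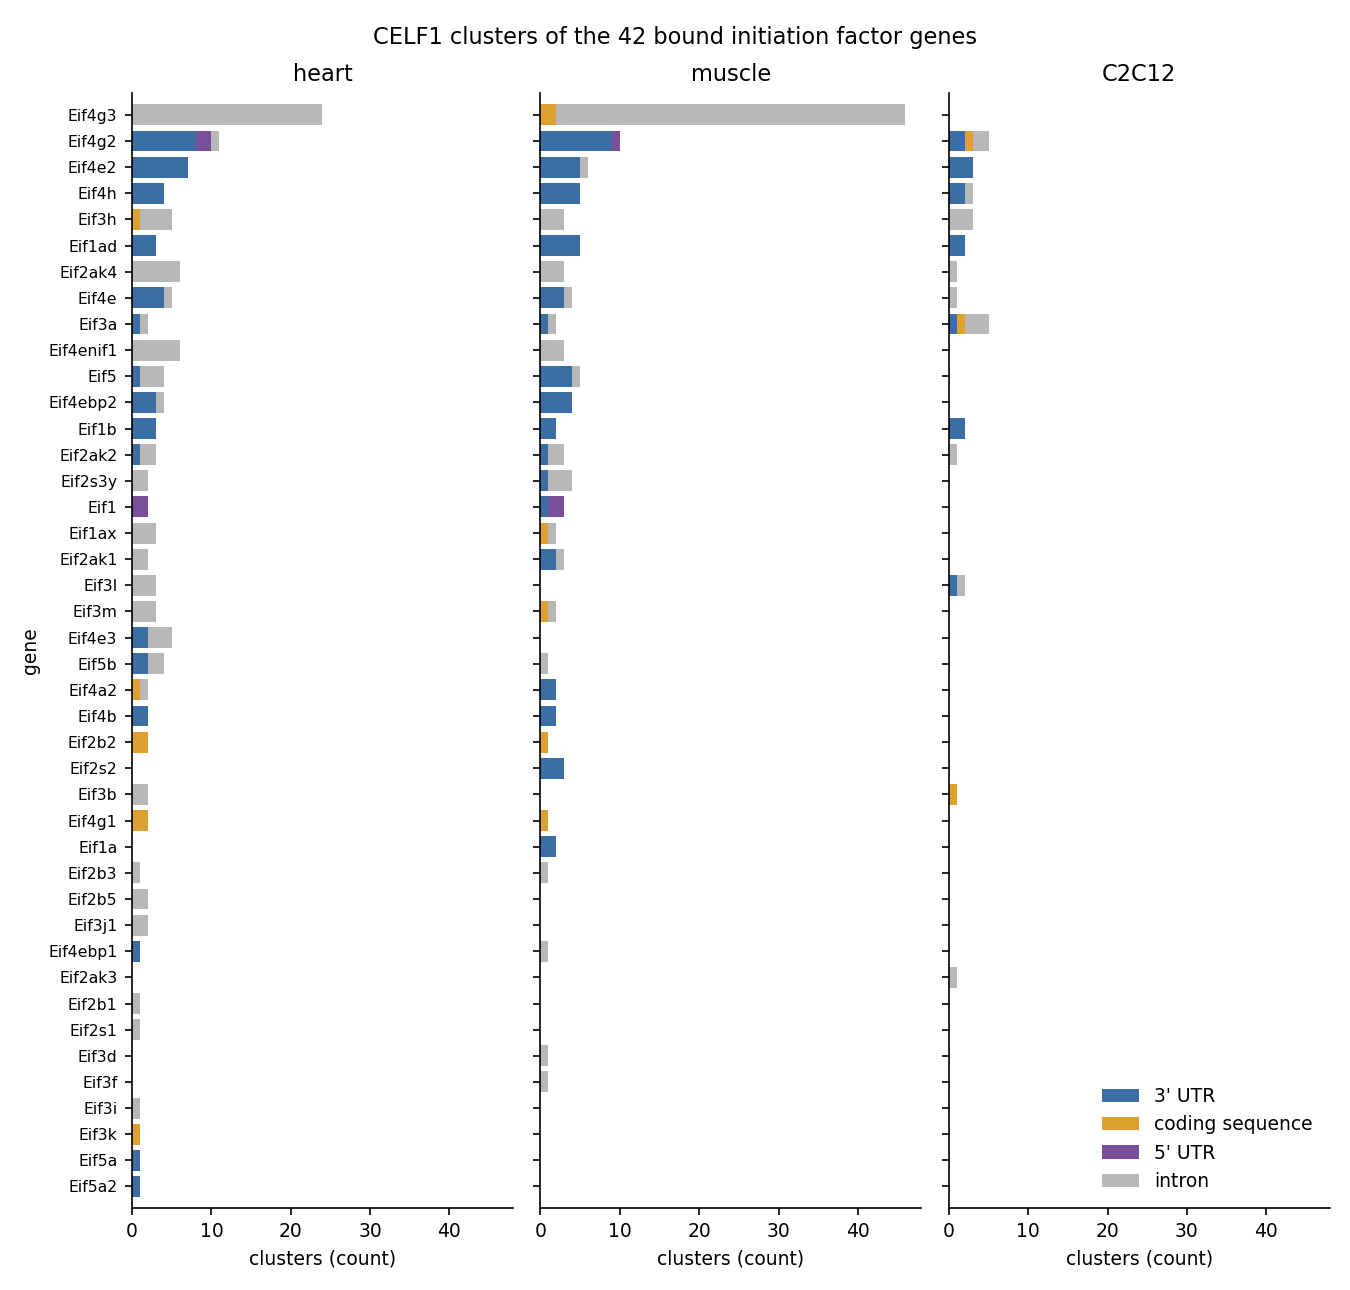
Number of CELF1 clusters (x axis, count) in each of the 42 bound initiation factor genes (y axis, ordered by total), in heart, muscle and C2C12, with bar colors for the gene part that holds the cluster midpoint. Eif4g3 stands out with 24 intron clusters in heart and 46 clusters in muscle, 44 of them in introns, and has none in C2C12.

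Member clusters lay mainly in introns and 3′ UTRs. In heart, 78 of 133 were in introns (58.6%, 49.8% to 67.1%) and 44 in 3′ UTRs (33.1%, 25.2% to 41.8%), close to the 58.7% and 33.0% of all heart clusters. Muscle had 70 of 131 in introns (53.4%) and 52 in 3′ UTRs (39.7%, 31.3% to 48.6%), where all muscle clusters gave 43.2% and 50.1%. That muscle split came from 1 gene. Without Eif4g3, 61.2% of muscle clusters lay in 3′ UTRs (50.0% to 71.6%) and 30.6% in introns (21.0% to 41.5%). The 3′ UTR interval held the value of all muscle clusters, and the intron interval lay below it. In heart the shares became 40.4% (31.1% to 50.2%) and 49.5% (39.8% to 59.3%), and both intervals held the values of all heart clusters. C2C12 had 13 of 30 in 3′ UTRs (43.3%) and 14 in introns (46.7%), with intervals that held the values of all C2C12 clusters, 33.9% and 60.4%.

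By gene, 16 members had a 3′ UTR cluster in heart, beside 20.1% of all genes, 17 in muscle, beside 17.5%, and 7 in C2C12, beside 5.53%. An intron cluster was found in 25 members in heart, beside 22.8%, in 18 in muscle, beside 15.1%, and in 9 in C2C12, beside 8.84%. As shares of the 56 members these were 28.6%, 30.4% and 12.5% for 3′ UTRs and 44.6%, 32.1% and 16.1% for introns. The members' intervals held the value of all genes for 3′ UTRs in heart (17.3% to 42.2%) and C2C12 (5.18% to 24.1%) and for introns in C2C12 (7.62% to 28.3%), and lay above it in the other 3 cases. Coding sequence held 7 clusters in heart, 6 in muscle and 3 in C2C12. The 5′ UTR held 4 in heart and 3 in muscle, all in Eif1 and Eif4g2. In heart that was 3.01% of member clusters (0.825% to 7.52%), beside 0.547% of all heart clusters. With member clusters within 20 nt merged it was 2.34%, and that interval (0.486% to 6.70%) held the unmerged 0.547%. Muscle gave 2.29% (0.475% to 6.55%), an interval that held the 0.523% of all muscle clusters.

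**Figure D2:**
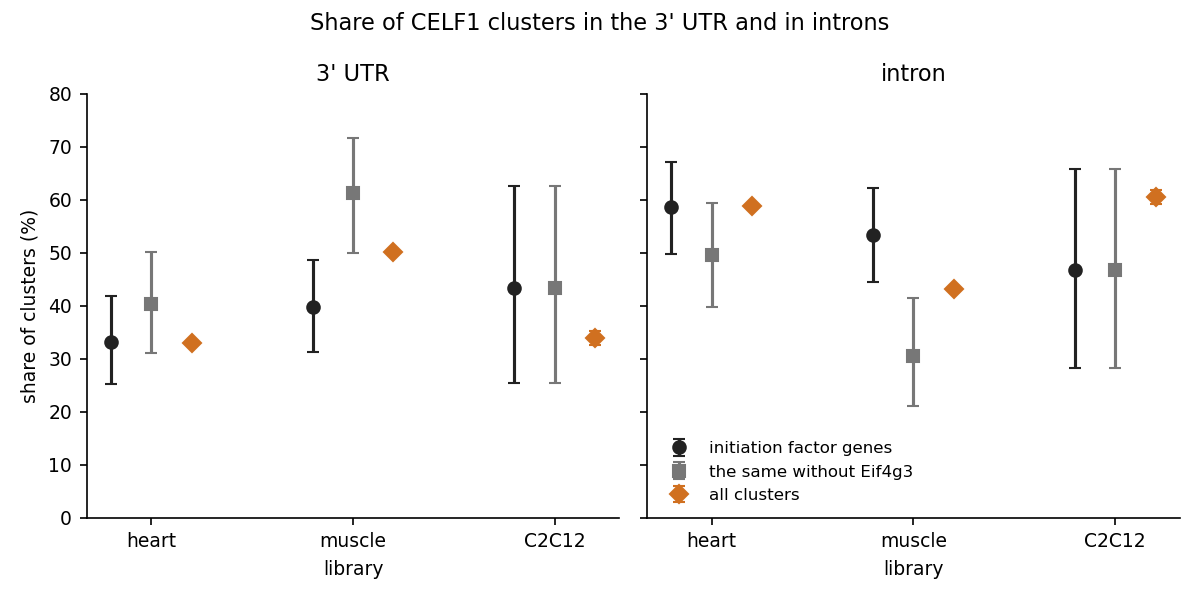
Share of clusters (y axis, percent) in the 3′ UTR (left) and in introns (right) by library, for initiation factor genes, for the same genes without Eif4g3 and for all clusters of the library. Bars are exact 95% intervals. In muscle the members' 3′ UTR share moves from 39.7% to 61.2% once Eif4g3 is left out. The interval of the latter (50.0% to 71.6%) holds the 50.1% of all clusters.

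The genes of cap binding and the eIF4F complex held more member clusters than any other group: 62 in heart (46.6%), 76 in muscle (58.0%) and 12 in C2C12 (40%), in 9, 8 and 4 of their 12 genes. Eif4g3, which encodes eIF4GII, a scaffold that binds eIF4E, eIF4A and eIF3, was marked 24 times in heart and 46 times in muscle, against 0 in C2C12. The gene spans 215487 nt at chr4:137548937-137764423 on the plus strand. In muscle only 14 of the 5291 bound protein-coding genes had more clusters, and by intron clusters it ranked 9, while in heart its rank was 219 of 6804. Its share of the library was 0.0568% in heart (0.0364% to 0.0845%) and 0.185% in muscle (0.136% to 0.247%), a ratio of 3.26 (1.95 to 5.58). The 0 of 5115 clusters in C2C12 allow a share of up to 0.0587%, under the muscle value but not under that of heart.

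All 24 heart clusters of Eif4g3 and 44 of the 46 in muscle were intronic, spread over 7 introns in heart and 11 in muscle of a transcript with 35 exons. Intron 2, of 51198 nt, held 10 in heart and 13 in muscle. Intron 4 held 6 in each, intron 3 held 2 and 6, and introns 5 and 10 each held 2 and 5. The other 2 muscle clusters lay in coding sequence of exon 12, which was not marked in heart. Most clusters were far from a splice site: 1 in heart and 4 in muscle had a midpoint within 300 nt of an exon, and the median distance was 5012 nt in heart and 2660 nt in muscle. In 4 equal segments from the start of the gene, heart had 10, 12, 2 and 0 clusters and muscle had 13, 21, 9 and 3. Heart clusters thus lay almost wholly in the first pair of segments, and muscle clusters ran further toward the end of the gene. Of the heart clusters, 18 overlapped a muscle cluster (75%, 53.3% to 90.2%), and 19 of the 46 in muscle overlapped one of heart (41.3%). Each of the 70 held UGU, with a median of 5 per cluster in both tissues.

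**Figure D3:**
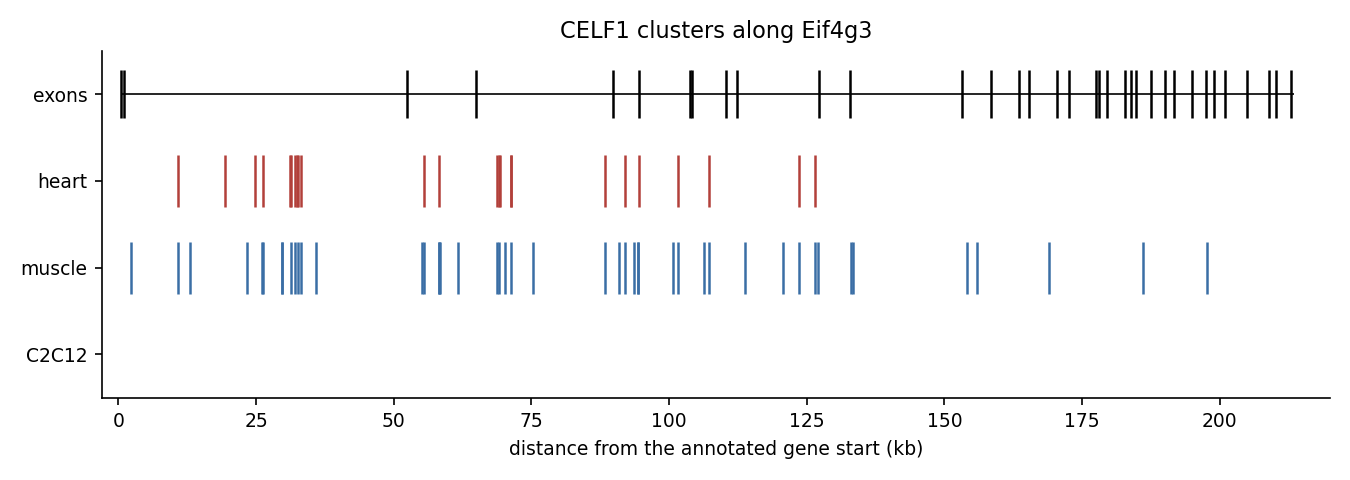
Positions of CELF1 cluster midpoints along Eif4g3 (x axis, kb from the annotated gene start), with exons of the longest coding transcript on the top line and 1 line per library. Heart (24) and muscle (46) marks share positions in the long introns at the start of the gene, marks after the middle are mostly those of muscle, and C2C12 has 0.

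Eif4g2, which encodes DAP5, an eIF4G relative that lacks the eIF4E-binding region, had the opposite layout in heart and muscle. Heart held 11 of its clusters, muscle 10 and C2C12 5, of which 8, 9 and 2 lay in its 3′ UTR. Its gene is at chr7:118211499-118226544 on the minus strand. Along the 3′ UTR, from 92 to 1948 nt after the last coding base, 7 of the 8 heart clusters overlapped one of the 9 in muscle. Both C2C12 clusters there fell on a position marked in heart and muscle, at midpoints of 139 and 1340 nt. The former had no UGU, although the wider heart and muscle clusters around it each held 4. One 5′ UTR cluster in exon 2 was shared by heart and muscle, and heart had a further one in exon 1. In C2C12 the remaining clusters were 1 in coding sequence and 2 in intron 14, 1 of them at the position of the only heart intron cluster. Eif4g1, which encodes eIF4GI, the main scaffold, had only coding-sequence clusters, 2 in heart and 1 in muscle, none at the same place.

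Of the cap-binding genes, Eif4e and Eif4e2 were marked mainly in their 3′ UTRs in heart and muscle. Eif4e had 4 such clusters in heart and 3 in muscle, and each of the 3 in muscle overlapped one of heart. C2C12 had none there. A further cluster, in intron 4, was present in all 3 libraries 63 to 70 nt from the nearest exon, and its shared stretch of 41 nt held 7 UGU. Eif4e2, whose product 4EHP binds the cap without joining eIF4G, had 7, 5 and 3 clusters in 3′ UTRs in heart, muscle and C2C12, and 1 intron cluster in muscle. Heart and muscle both marked an upstream 3′ UTR block, 105 and 107 nt from an annotated end, and the long terminal block. In the terminal block the 3 libraries met, at midpoints 1725 to 1807 nt after the last coding base. A heart cluster 1563 nt after it held a UG run of 23 nt. Eif4e3, also a cap-binding gene, was marked 5 times in heart, at 3 intron and 2 3′ UTR positions, and had 0 in muscle and C2C12. The 0 of 24844 in muscle allow a share of up to 0.0121%, which holds the 0.0118% of heart, so no difference was detectable at this depth.

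Eif4h and Eif4b encode proteins that stimulate the eIF4A helicase. Eif4h had 4 clusters in heart and 5 in muscle, all in its 3′ UTR of 1635 nt, and every one of them overlapped a cluster of the other tissue. C2C12 had 2 in the 3′ UTR, 1 of them at the site shared by all, and 1 in intron 1. Eif4b had 2 3′ UTR clusters in each tissue and shared only the one without UGU. Eif4a2, 1 of the helicase genes, had 1 coding and 1 intron cluster in heart and 2 3′ UTR clusters in muscle. Its close relative Eif4a1 had 0 everywhere, as did Eif4a3, Eif4a3l1 and Eif4e1b. The pseudogenes under the rule are copies of eIF1, eIF2, eIF3, eIF4A and eIF5A genes, and since only uniquely mapping reads were kept, a 0 in the genes they resemble is uncertain.

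**Figure D4:**
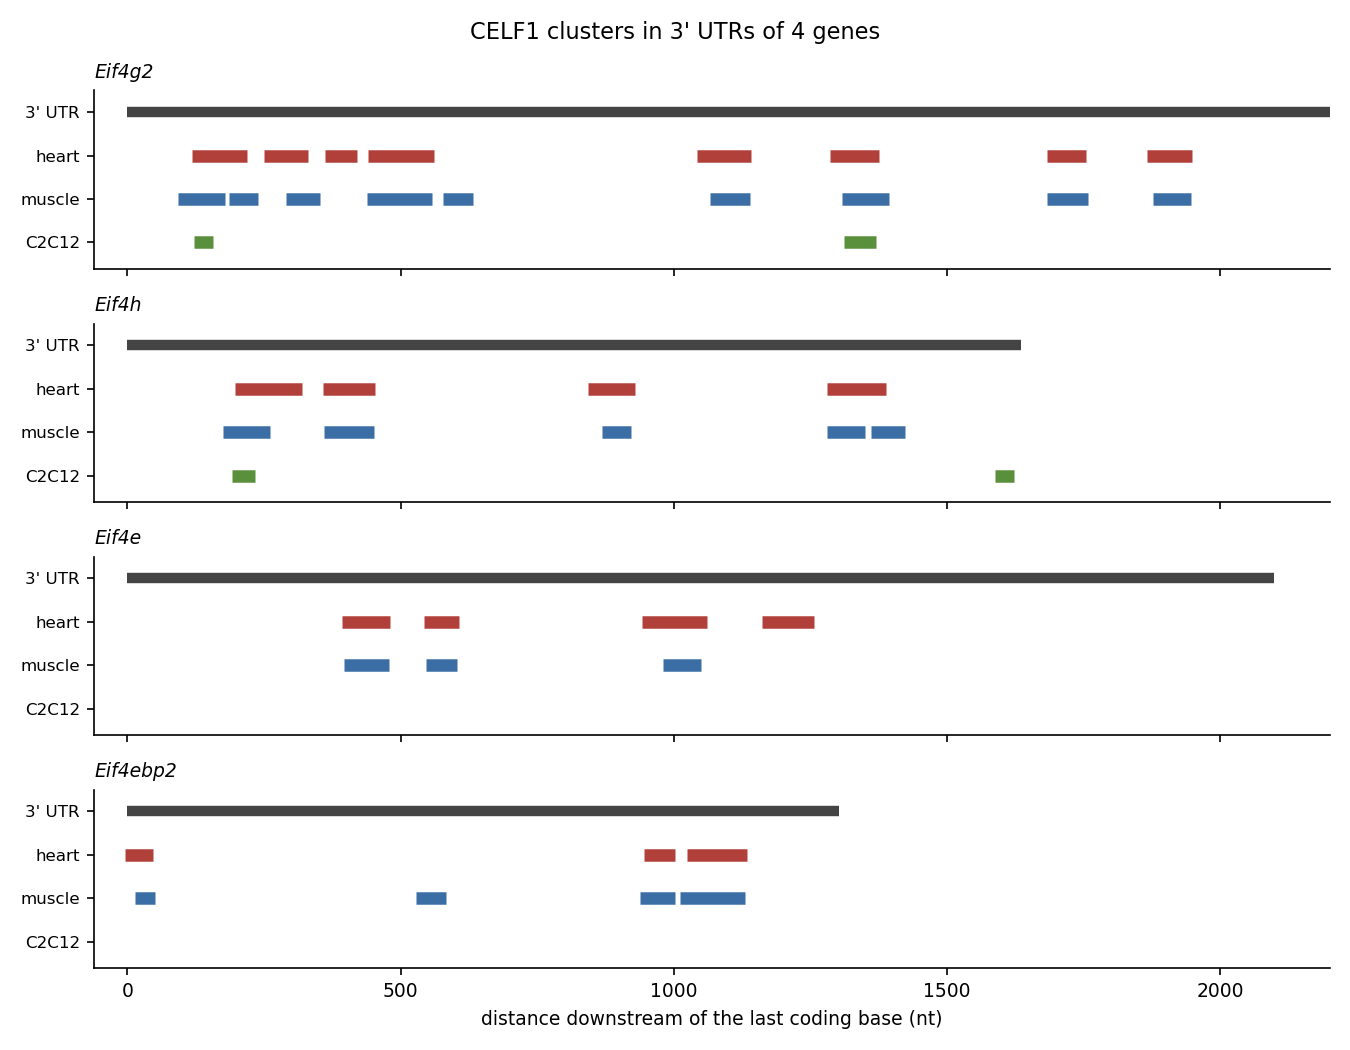
CELF1 clusters in the 3′ UTRs of Eif4g2, Eif4h, Eif4e and Eif4ebp2 (x axis, nt downstream of the last coding base), with the annotated 3′ UTR as a dark bar and 1 line per library. Every heart and muscle cluster of Eif4h has a partner in the other tissue, while the other genes also show clusters of 1 tissue alone (1 of heart and 1 of muscle in Eif4g2, 1 of heart in Eif4e, 1 of muscle in Eif4ebp2). C2C12 has 2 in Eif4g2, 2 in Eif4h and none in the others. The bar of Eif4g2 is drawn only in part, since its longest annotation runs to 4710 nt.

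The genes that restrain cap binding had clusters in heart and muscle and none in C2C12. Eif4ebp2, a 4E-binding protein gene, had 3 3′ UTR clusters in heart and 4 in muscle, and each of the 3 in heart met one of muscle. The shared sites lay at the start of the 3′ UTR, 22 and 33 nt after the last coding base, and from 971 to 1079 nt after it. Heart had 1 more in intron 1. Eif4ebp1 had 1 3′ UTR cluster in heart and 1 intron cluster in muscle. Eif4enif1, whose product 4E-T carries eIF4E into the nucleus and into processing bodies, had 6 in heart and 3 in muscle, all intronic, and 1 site in intron 14 was shared. One of its heart clusters held a UG run of 28 nt. Eif4ebp3 had 0.

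Of the 9 genes grouped here under scanning and start codon choice, 6 were bound in heart with 19 clusters, 7 in muscle with 20, and 2 in C2C12 with 4. The group takes in Eif1ad and Eif6, which are not established scanning factors, and 2 of the 4 C2C12 clusters were in Eif1ad. Eif1ad, whose product has an eIF1A-like domain, had 3, 5 and 2 clusters, all in the 3′ UTR. They included the longest UG run of any member, 41 nt, inside a 76-nt stretch with 22 UGU that all 3 libraries shared at midpoints 1114 to 1121 nt after the last coding base. Eif1b, a paralog of Eif1, had 3, 2 and 2, all in a 3′ UTR of 373 nt. The libraries marked neighboring positions in that short 3′ UTR, but only 1 nt was common to all 3. Eif1, the factor that guards start codon fidelity, had 2 5′ UTR clusters in heart and 2 in muscle at the same places, plus 1 3′ UTR cluster in muscle. The upstream pair held no UGU and the other held 1.

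Eif5, which encodes the GTPase-activating protein of eIF2, had 4 clusters in heart and 5 in muscle, split in opposite ways: 3 in intron 6 and 1 in the 3′ UTR in heart, and 1 and 4 in muscle. One site of each kind was shared. Eif5b, the subunit joining factor, had 4 in heart, 2 of them in the 3′ UTR, and 1 in muscle, which shared the intron 1 site of heart. Eif1ax, an eIF1A gene, had 3 clusters in intron 1 in heart, and in muscle 1 in coding exon 3 and 1 in intron 6. Its relative Eif1a had 2 3′ UTR clusters in muscle alone. Eif2d and Eif6 had 0 in every library.

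The genes grouped here under eIF2 and its exchange factor eIF2B were thinly marked. There were 9 clusters in heart over 6 of 10 genes, 9 in muscle over 4, and none in C2C12, and no position was shared between libraries. Of all clusters, 30.9% of those in heart overlapped muscle and 52.8% of those in muscle overlapped heart. The counts here are small, and whether the lack of overlap is a trait of the group was not tested. Eif2s2, which encodes the beta subunit of eIF2, had 3 3′ UTR clusters in muscle, at 549, 679 and 778 nt after the last coding base, and 0 in heart. Heart's 0 of 42263 allow up to 0.00710%, beside 0.0121% in muscle, whose interval reached down to 0.00249%. Eif2s3y, the Y-linked gene of the gamma subunit, had 2 intron clusters in heart, and 3 intron and 1 3′ UTR cluster in muscle. Its X-linked counterpart Eif2s3x had 0, which unique mapping leaves uncertain. Eif2s1, the gene of the subunit that stress kinases phosphorylate, had 1 intron cluster in heart. Of the exchange factor, Eif2b2 had 2 coding clusters in heart and 1 in muscle in different exons, Eif2b3 had 1 intron cluster in each, Eif2b5 had 2 in heart and Eif2b1 had 1 in heart. Eif2b4 had 0, as did Eif2a, a separate factor that was placed in this group by name and is no subunit of eIF2.

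All 4 kinases of eIF2 were bound somewhere, with 11 clusters in heart, 9 in muscle and 3 in C2C12, and 19 of these 23 were intronic. Eif2ak4, which encodes the amino acid sensor GCN2, had 6, 3 and 1, all in introns. The 3 libraries met in intron 2, 1830 to 1847 nt from an exon, on a 43-nt stretch with 6 UGU. Eif2ak2, which encodes the double-stranded RNA sensor PKR, had 3, 3 and 1. Its intron 12 held a site shared by heart and muscle and a separate site shared by muscle and C2C12, and its 3′ UTR a site shared by heart and muscle. Eif2ak1, the heme-regulated kinase, had 2 intron clusters in heart, and 1 intron and 2 3′ UTR clusters in muscle. Eif2ak3, the endoplasmic reticulum kinase PERK, had a single cluster, in intron 11 in C2C12, with a UG run of 30 nt.

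The genes of eIF3, the large complex that bridges the small subunit and eIF4G, held 19 of the clusters in heart, 9 of those in muscle and 11 in C2C12. That was 14.3%, 6.87% and 36.7% of the member clusters of each library. Of the 39 clusters, 30 were intronic and 4 in 3′ UTRs. Eif3a, the largest subunit, had 2, 2 and 5 clusters. Its 3′ UTR and its intron 4 were each marked at the same place in all 3 libraries, and C2C12 had 1 more in coding exon 17 and 2 in other introns. Its share was 0.0978% of the C2C12 library (0.0317% to 0.228%). Heart gave 0.00473% (0.000573% to 0.0171%) and muscle 0.00805% (0.000975% to 0.0291%). These counting intervals did not overlap that of C2C12, but the muscle limit came close to it. They rest on 2, 2 and 5 clusters and allow nothing for picking this gene from the 42 bound members. Its C2C12 clusters in the 3′ UTR, intron 1 and intron 20 were 35, 35 and 38 nt wide. All of these fall below the minimum width set in the alternatives. A difference between sources was not tested. Eif3h had 5, 3 and 3, all but 1 in its second intron of 43108 nt, where muscle shared a site with heart and others with C2C12. Eif3l had 3 clusters in heart and 2 in C2C12 and 0 in muscle. In intron 5, 1 heart and 1 C2C12 cluster overlapped, but only at their edges. Eif3m had 3 in heart and 2 in muscle, and Eif3b had 2 in heart and 1 in C2C12. Heart alone marked Eif3j1 (2 clusters), Eif3i and Eif3k, and muscle alone Eif3d and Eif3f. Eif3c, Eif3e, Eif3g and Eif3j2 had 0.

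The genes of eIF5A, which relieves stalled ribosomes during elongation, were marked in heart only, by 1 3′ UTR cluster each in Eif5a and Eif5a2. In all, 14 members had no cluster: their median annotated 3′ UTR was 310 nt and their median gene length 6484 nt, beside 1310 nt and 19325 nt for the 42 bound members. The part of gene length in these counts was not tested.

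Clusters of initiation factor genes overlapped between libraries. Of the 133 heart clusters, 62 shared at least 1 nt with a muscle cluster (46.6%, 37.9% to 55.5%), beside 30.9% of all heart clusters, and without Eif4g3 44 of 109 did (40.4%, 31.1% to 50.2%). In the other direction, 64 of 131 muscle clusters met one of heart (48.9%, 40% to 57.7%), beside 52.8% of all. In heart, the 3′ UTR clusters overlapped muscle more often than the intron clusters did, with 31 of 44 (70.5%, 54.8% to 83.2%) against 28 of 78 (35.9%, 25.3% to 47.6%), where all heart clusters gave 53.8% and 18.9%. Without Eif4g3 the intron share was 10 of 54 (18.5%, 9.25% to 31.4%), close to that of all heart clusters. Of the 30 C2C12 clusters, 14 met heart (46.7%, 28.3% to 65.7%) and 15 met muscle (50.0%, 31.3% to 68.7%), beside 33.9% and 25.0% of all C2C12 clusters. Both were met by 10 (33.3%, 17.3% to 52.8%), beside 20.1% of all. The intervals for heart and for both held the value of all clusters. Only 11 met neither (36.7%, 19.9% to 56.1%), beside 61.2% of all. With 10.5% of heart and 11.5% of muscle clusters meeting one of the small C2C12 library, all clusters gave 4.19% and 5.29%. Merged into stretches, 66 in 18 genes were common to heart and muscle, and 11 in 8 genes were common to all 3 libraries, 8 of these in 3′ UTRs.

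**Figure D5:**
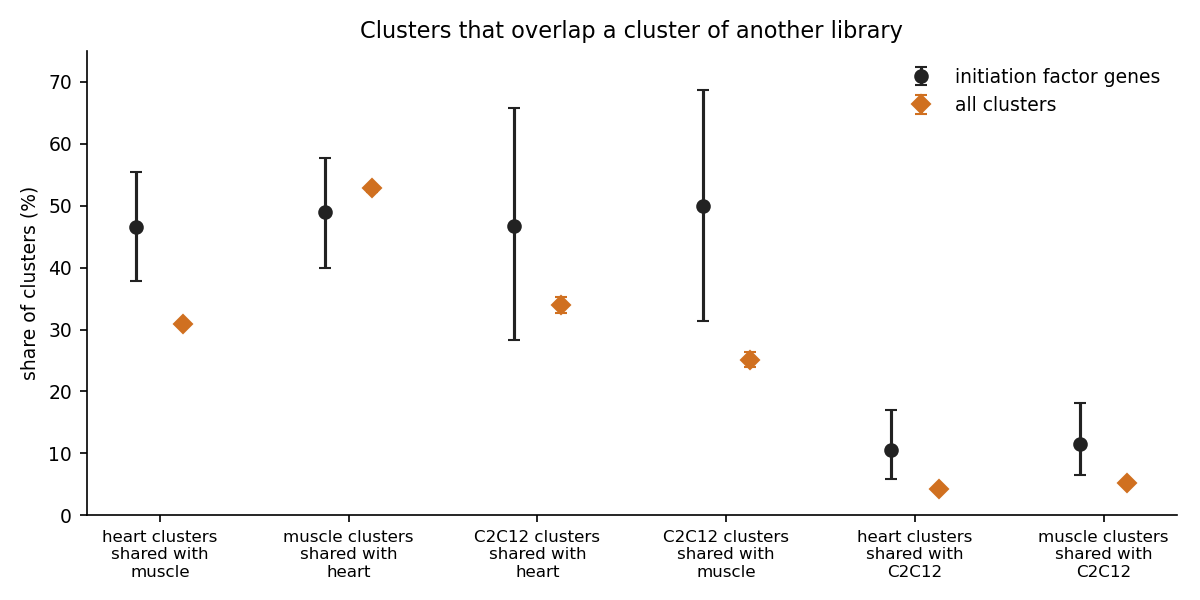
Share of clusters (y axis, percent) that share at least 1 nt with a cluster of another library (x axis), for initiation factor genes and for all clusters, with exact 95% intervals. Members lie above all clusters in 5 of the 6 directions, at 46.6% against 30.9% for heart clusters shared with muscle, and below them for muscle clusters shared with heart, at 48.9% against 52.8%. For muscle clusters shared with heart and for C2C12 clusters shared with heart the members' interval holds the value of all clusters.

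UGU was present in 130 of 133 member clusters in heart (97.7%) and 129 of 131 in muscle (98.5%), close to the 98.3% and 98.4% of all clusters. In C2C12, 24 of 30 held it (80%, 61.4% to 92.3%), beside 86.4% of all. Every intron cluster of the members in heart and muscle held UGU. The clusters without it were those of Eif1 and Eif4b in both tissues and a coding cluster of Eif4g1 in heart. In C2C12 they were in Eif1b, Eif3a, Eif4e2, Eif4g2 (2) and Eif4h. UG runs of 12 nt or more were found in 10 heart (7.52%), 5 muscle (3.82%) and 3 C2C12 clusters (10.0%). All clusters gave 9.31%, 5.60% and 6.59%, each within the members' interval. Intron clusters within 300 nt of an exon were 16 of 78 in heart, 8 of 70 in muscle and 5 of 14 in C2C12. Those in 3′ UTRs within 500 nt of an annotated transcript end were 20 of 44, 25 of 52 and 8 of 13. These distances were not computed for all clusters, so they show no trait particular to the members.

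Other genes of translation carried clusters as well. Of 35 genes of elongation, termination, poly(A) binding, initiation signaling and the stress response, 23 had a cluster in heart, 22 in muscle and 13 in C2C12, with 109, 98 and 26 clusters, and 14, 16 and 6 had one in the 3′ UTR. These shares of 65.7%, 62.9% and 37.1% stood beside 33.0%, 25.7% and 13.2% of all genes. The initiation factor genes gave 66.1% in heart, 53.6% in muscle (39.7% to 67.0%) and 23.2% in C2C12 (13.0% to 36.4%). The list's share was about equal to theirs in heart, within their interval in muscle and just above it in C2C12. For the 3′ UTR the shares of the 35 genes were 40%, 45.7% and 17.1%, beside 20.1%, 17.5% and 5.53% of all genes. Rptor, whose product brings substrates to the kinase mTOR, had 22, 19 and 4 clusters, while Mtor had 7, 1 and 0. Rps6kb1, an mTOR target kinase, had 3, 10 and 1. The release factor genes Etf1 and Gspt1 had 6, 5 and 3 and 7, 7 and 3, and the helicase gene Ddx3x had 5, 7 and 4. Paip1 and Paip2b, whose products bind poly(A)-binding protein, had 7 and 8, and 6 and 7, in heart and muscle, and both had 0 in C2C12.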

How the data were processed

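CELF1 CLIP clusters were analyzed in 1 heart, 1 muscle and 1 C2C12 library. As the labels and published methods describe, duplicate reads were collapsed by the authors, who trimmed adapters, mapped to mm9 and splice junctions with Bowtie and TopHat, kept unique matches and called clusters in each library by a Poisson model of gene expression and pre-mRNA length. The sources used here name no tool versions. The deposited files hold cluster start, end, strand and Entrez identifier, with no score or count of reads. A further column holds 1e-06 throughout and was not used. Since no read numbers are given, the depth of a cluster is unknown.

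Symbols came from a RefSeq table (GRCm38.p6, names only), which matched 8030 of 8037 identifiers. The NCBIM37 genome, on which mm9 is built, and GENCODE vM1 gave sequences and gene parts. A cluster was placed by its midpoint in the 3′ UTR, coding sequence, 5′ UTR or intron of protein-coding transcripts, in that order, and no member cluster fell outside. Distances from the coding sequence count genomic bases from its last base before the stop codon. Overlap meant 1 nt or more on the same strand. Shares have exact Clopper-Pearson 95% intervals, scaled ratios have conditional exact binomial ones, and a count of 0 was taken to allow 3 clusters. Clusters of 1 gene are not independent. With 1 library per group no test was made. The functions were tested on simulated data. Every member could be named, and members bound in all 3 libraries or among the 15 with most clusters were given by gene part. The members and lists were chosen with earlier results of these data known. Alternatives merged clusters within 20 nt, kept clusters of 40 nt or more, asked for 2 clusters per gene or 50% reciprocal overlap, changed how gene parts were assigned, left out kinase and 4E-binding genes, scaled by library and searched UGU 10 nt further out. Programs were samtools 1.23.1, pysam 0.24.0, scipy 1.17.1, pandas 2.3.3, numpy 2.4.6 and matplotlib 3.10.9 under Python 3.11.15.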

Additional observations from a re-analysis of the deposited data

How the results depend on the processing

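Of 143 values recomputed under the alternatives, 128 stayed within 1.5 times the reported count or within the interval of the reported share, and 15 moved further. Scaling by library turned the count of members by tissue, with 25 higher in muscle instead of 11. Most of the others were in C2C12. With clusters of at least 40 nt, C2C12 kept 15 clusters, 4 members with a 3′ UTR cluster, UGU in 93.3% and overlap with heart in 66.7%, above the 53.3% with muscle, where the reported order was the reverse. Merging clusters put 3′ UTRs (46.4%) above introns (42.9%) in C2C12. Asking for 2 clusters per gene left 8 members in C2C12 and 10 with 3′ UTR clusters in heart. With 50% reciprocal overlap, 5.26% of heart clusters met C2C12, and 23.3% and 30% of C2C12 clusters met heart and muscle. UGU within 10 nt of the cluster was found for 93.3% in C2C12. Without Eif4g3, an alternative added after seeing the data, muscle had 85 clusters with 61.2% in 3′ UTRs and 30.6% in introns, which turned the order of these parts, and heart had 49.5% in introns. No paired analysis was possible because each source has 1 library, and for the same reason no replicate could be left out. Depth limits C2C12 most: its 0 of 5115 allow a share of up to 0.0587%, above the heart share of every member.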
